A study of Mus musculus with 8 samples.

Results

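The genes described here drive DNA replication and mitosis, and were read from 8 Affymetrix mouse expression arrays of small intestine. Of 35 listed genes, 34 had at least 1 probe set that the platform annotation assigns to that gene alone, 75 such probe sets in all, out of 18194 genes and 34958 single-gene probe sets on the array. All 34 passed the filter on dim probe sets and were among the 13119 genes tested. Ccnb1, the main B-type cyclin, had no single-gene probe set and has no value here. By role, 8 genes belong to replication licensing, 4 to helicase activation and the clamp, 3 to deoxynucleotide synthesis, 3 are cyclins of the E and A types, and 17, of which 16 were measured, act in mitosis.

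All mice were C57BL/6, ate the AIN-76 diet and carried 1 Min allele of Apc, a mutation under which adenomas form in the gut, and loxP-flanked Spint1, the gene for the protease inhibitor HAI-1, on both chromosomes. The HAI-1 deficient mice were Apc (Min/+)/Spint1 (flox/flox)/Vil-Cre, and the controls were Apc (Min/+)/Spint1 (flox/flox), with no Cre. The Cre was driven by the villin promoter, so deletion is limited to cells of the intestinal epithelium, and other cells of the tissue keep the gene. The 4 groups, with 2 arrays each, were deficient tumours, deficient mucosa, control tumours and control mucosa, where mucosa is small intestinal lining without tumour. Ages are not given in the labels, nor is it stated whether arrays of a group came from separate mice or whether tumour and mucosa came from the same animal, so p-values measure only the spread between these samples.

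Replication is licensed in G1, when Cdc6 and Cdt1 load the Mcm2 to Mcm7 helicase onto origins. In S phase Cdc45 and the GINS complex turn the loaded helicase on, Pcna clamps polymerases to DNA, and ribonucleotide reductase and thymidylate synthase supply nucleotides. Cdk1 with B-type cyclins then drives entry into mitosis, the Bub and Mad proteins delay separation of chromosomes until all are attached, and Cdc20 activates the ligase that ends the delay. In the small intestine these genes are on in the dividing cells of the crypt and off in the cells of the villus. In whole tissue a larger share of dividing cells and more RNA per dividing cell cannot be told apart.

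Licensing and mitotic genes are known to carry different promoter elements: E2F sites are bound by E2F factors, and the cell cycle genes homology region (CHR), often near CCAAT boxes, is bound by MuvB complexes. RefSeq promoter windows of build GRCm38.p6, from 250 bases before to 50 after the annotated start, were found for 28 of the 35 genes. Both strands were searched for the E2F words TTGGCGC or TTCCCGC or TTGCCGC or TTCGCGC, the CHR word TTTGAA and the word CCAAT. A window that holds TTGGCGCGAA counts once although 2 E2F words on opposite strands share its bases, and a CCAAT word can share bases with TTGGCGC. An E2F word stood in the windows of 6 of 7 licensing genes (85.7%), in 3 of 15 mitotic genes (20.0%) and in 10.9% of 27025 mouse genes. The CHR word stood in 1 of 7 licensing genes (14.3%), Mcm2, in 11 of 15 mitotic genes (73.3%) and in 20.2% of all genes. CCAAT was in 5 of 7 licensing and 13 of 15 mitotic windows, and in 41.1% of all genes. A word is a description of letters and does not show that a factor binds there. The 250 bases before the start are printed below for 2 licensing genes, 2 mitotic genes with a CHR word, Cdk1, which holds all 3 kinds of word, and Rrm2, the gene with the largest difference between deficient and control mucosa. Words found are in capitals.

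The bases printed for Mcm5, a subunit of the licensed helicase, lie on the plus strand at chr8:75109259-75109508. Those for Mcm6, another subunit, lie on the minus strand at chr1:128359706-128359955. Both hold E2F words that overlap on opposite strands, and CCAAT words on the given strand in Mcm5 and on the other strand in Mcm6.
Mcm5: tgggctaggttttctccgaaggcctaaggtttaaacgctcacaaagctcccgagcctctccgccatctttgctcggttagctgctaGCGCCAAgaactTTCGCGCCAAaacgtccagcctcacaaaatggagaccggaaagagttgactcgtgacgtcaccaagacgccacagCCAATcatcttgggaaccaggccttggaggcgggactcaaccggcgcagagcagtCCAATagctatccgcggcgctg
Mcm6: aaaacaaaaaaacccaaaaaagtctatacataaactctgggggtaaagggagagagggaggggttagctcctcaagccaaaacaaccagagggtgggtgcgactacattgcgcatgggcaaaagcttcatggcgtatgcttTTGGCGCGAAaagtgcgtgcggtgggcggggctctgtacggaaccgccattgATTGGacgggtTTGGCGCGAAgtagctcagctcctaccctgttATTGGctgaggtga

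The bases printed for Cdc20, the activator of the anaphase-promoting complex, lie on the minus strand at chr4:118437344-118437593. Those for Kif11, the kinesin that pushes spindle poles apart, lie on the plus strand at chr19:37376132-37376381. Each has a CHR word close to the start, on the given strand in Cdc20 and on the other strand in Kif11, with a CCAAT word before it, and no E2F word.
Cdc20: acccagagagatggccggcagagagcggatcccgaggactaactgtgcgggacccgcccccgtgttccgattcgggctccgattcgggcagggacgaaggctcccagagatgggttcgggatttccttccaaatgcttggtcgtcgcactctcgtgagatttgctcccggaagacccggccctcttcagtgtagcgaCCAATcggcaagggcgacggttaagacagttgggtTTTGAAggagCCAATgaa
Kif11: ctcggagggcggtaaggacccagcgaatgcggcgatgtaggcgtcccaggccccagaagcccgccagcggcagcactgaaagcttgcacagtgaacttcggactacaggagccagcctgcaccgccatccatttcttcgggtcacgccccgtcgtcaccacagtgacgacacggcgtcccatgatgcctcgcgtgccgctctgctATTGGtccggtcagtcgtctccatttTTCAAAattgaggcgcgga

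The bases printed for Cdk1, the mitotic kinase, lie on the minus strand at chr10:69352913-69353162. Those for Rrm2, the small subunit of ribonucleotide reductase, lie on the plus strand at chr12:24708004-24708253. They hold an E2F word far from the start and 1 CCAAT word.
Cdk1: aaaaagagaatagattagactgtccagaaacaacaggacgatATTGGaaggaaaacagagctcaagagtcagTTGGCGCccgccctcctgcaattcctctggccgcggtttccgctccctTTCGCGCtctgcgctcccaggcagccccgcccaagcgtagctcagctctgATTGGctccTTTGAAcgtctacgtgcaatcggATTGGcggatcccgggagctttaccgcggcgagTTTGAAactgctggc
Rrm2: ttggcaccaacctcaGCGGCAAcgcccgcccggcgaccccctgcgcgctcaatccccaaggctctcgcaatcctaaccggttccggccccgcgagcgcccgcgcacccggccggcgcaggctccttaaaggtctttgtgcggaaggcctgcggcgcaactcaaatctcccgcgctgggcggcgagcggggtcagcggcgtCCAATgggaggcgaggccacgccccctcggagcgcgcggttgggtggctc

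**Figure D1:**
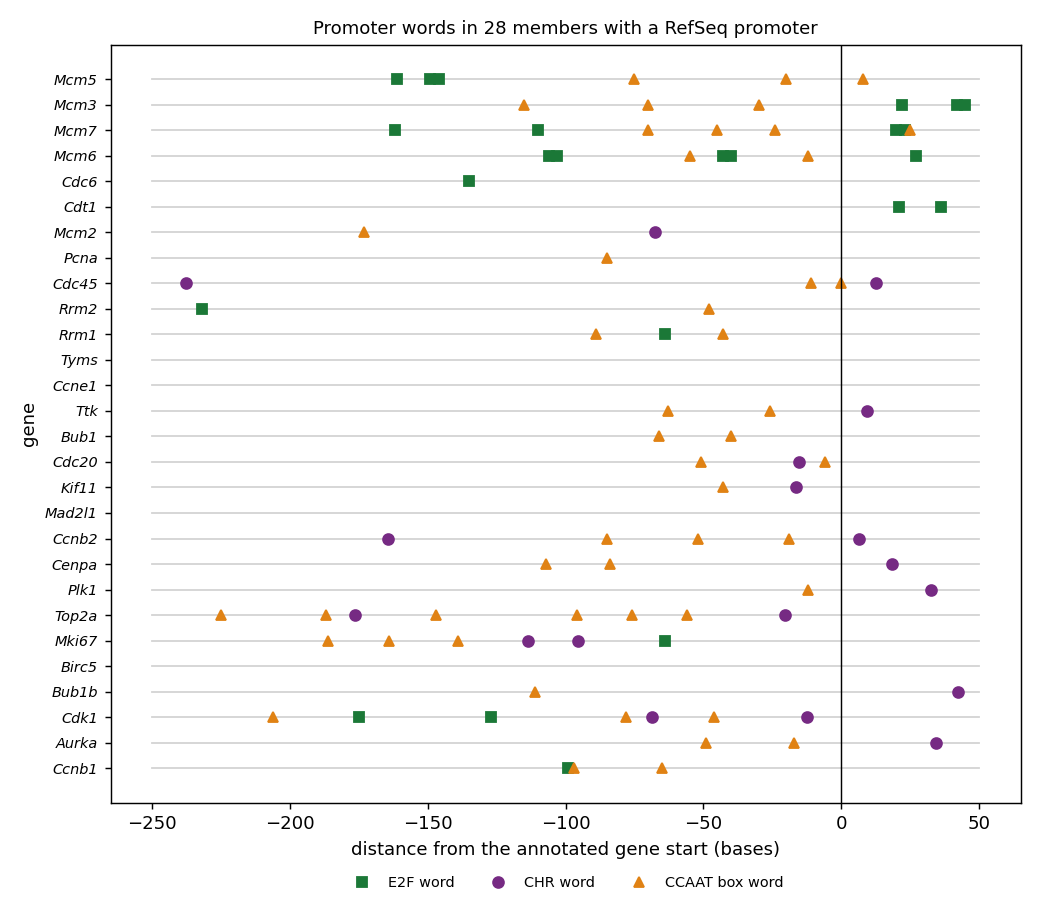
Position of each word in bases from the annotated start (x axis) in the promoter windows of 28 genes (y axis), with squares for E2F words, circles for the CHR word and triangles for CCAAT; windows of a gene with more than 1 start share a row. Squares lie mostly in licensing genes, 6 of 7 of which hold one, and circles mostly in mitotic genes, 11 of 15.

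Values are log2 signals as the authors deposited them, and differences are fitted log2 differences ± the standard error from limma, fitted to the 4 group means together. A gene was called at a Benjamini-Hochberg adjusted p under 0.05 over all genes tested. Arrays of 1 group correlated across genes at r of 0.947 to 0.968, and tumours of the 2 genotypes at 0.915 to 0.976, so whole profiles did not separate deficient from control tumours. Spint1, the deleted gene, lay at 11.76 to 12.46 on the deficient arrays and at 12.75 to 13.06 on the control arrays, with no overlap. The second control tumour array stood apart in RNA quality: its Gapdh signal near the 3' end was 25.9 times that near the 5' end, against 0.803 to 1.77 times on the other arrays. Poly-A spike-in controls were brighter on the second arrays of deficient tumours, deficient mucosa and control mucosa, at a mean of 7.90 to 8.35, against 6.22 to 7.02 on the others, and the labels name no batch. The 18S ribosomal RNA signal was 13.6 on the second deficient mucosa array and 14.6 on the second control mucosa array, against 7.61 to 10.1 on the others, and these are the mucosa arrays with the higher mean over the 34 genes in each genotype. The part of these array differences in the results was not tested.

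In control mice, tumours had more RNA of nearly every replication and mitosis gene than mucosa had. All 34 genes were higher in both tumour arrays than in both mucosa arrays, which was true of 45.3% of all genes tested. Of the 34, 30 rose at an adjusted p under 0.05, against 21.2% of all genes, and none fell, against 7.64%. The median difference was 1.85, against 0.24 over all genes. The 4 that were not called were Pcna, Cdc45, Ccne2 and Aurka. Fewer were called, of the 34 and of all genes, without the first control mucosa array or either control tumour array. The median was then 1.52 without that mucosa array, and 1.73 and 1.99 without the first and second tumour arrays. Over all genes it was 0.29, 0.26 and 0.25, and all 34 differences stayed above 0.

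**Figure D2:**
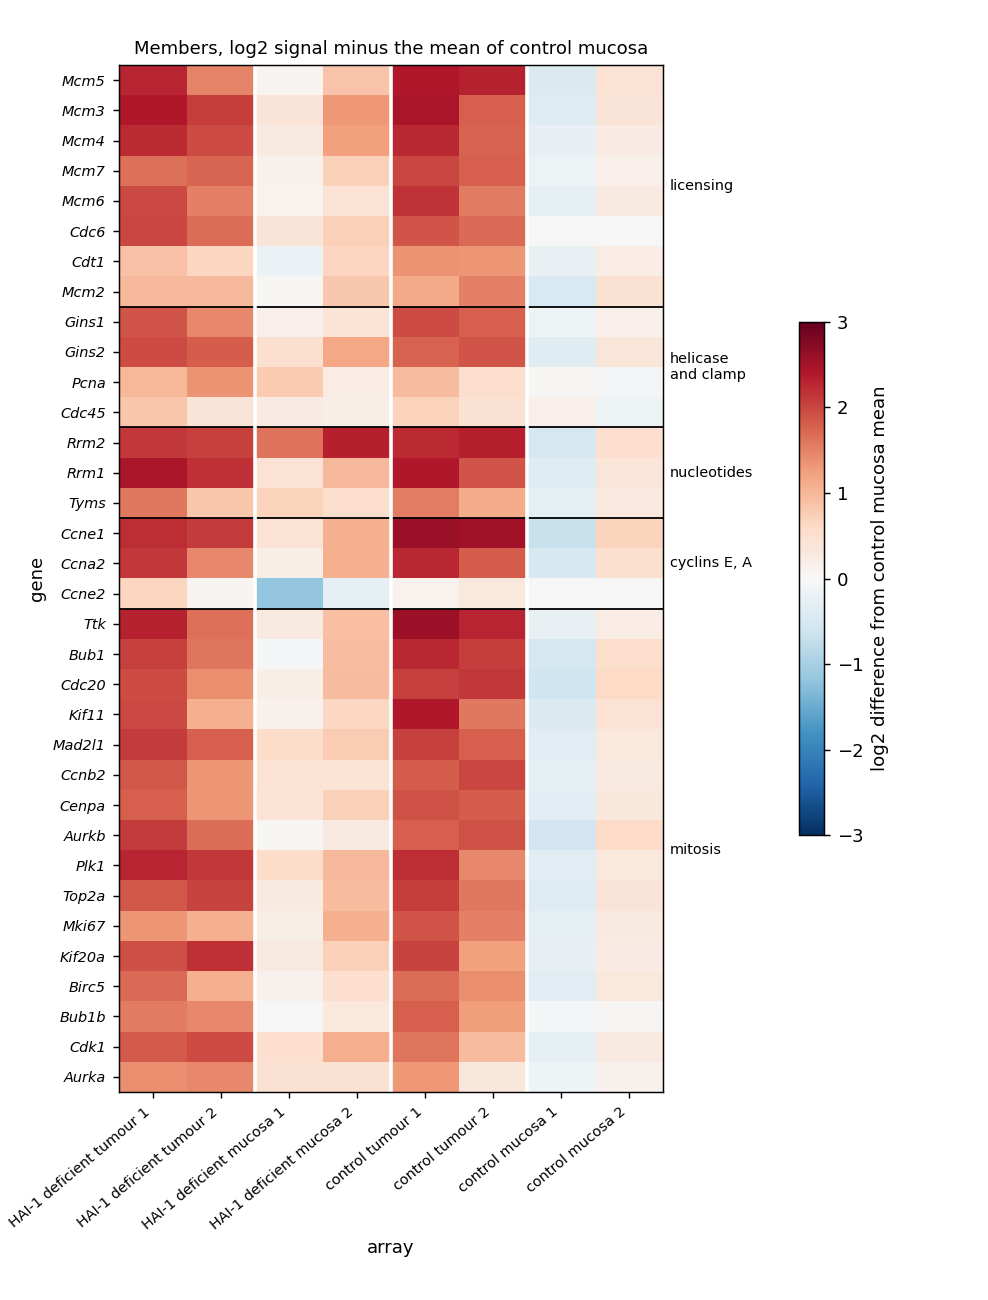
Heat map of the 34 genes (rows, by role) on the 8 arrays (columns), coloured by log2 signal minus the mean of the 2 control mucosa arrays. The 4 tumour columns are red for nearly every gene, with list means of 1.5 to 1.87. The deficient mucosa columns have list means of 0.28 and 0.76, with Rrm2 the highest gene in both and Ccne2 below control mucosa in both.

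All 8 licensing genes rose in control tumours, by 1.33 to 2.35. Cdc6, which helps load the helicase and had the smallest p of the group, had 8.54 and 8.36 in control tumours, against 6.67 and 6.64 in control mucosa, a difference of 1.79 ± 0.25 (adjusted p = 0.0034, limma). The helicase subunit Mcm7 had 12.82 and 12.62 in control tumours, against 10.66 and 10.98 in control mucosa, a difference of 1.90 ± 0.28 (adjusted p = 0.0042, limma). Replicates lay far closer together than tumour and mucosa did for both genes. Mcm5, whose promoter is printed above, had 11.52 and 11.42 in control tumours, against 8.68 and 9.56 in control mucosa, and its difference of 2.35 ± 0.43 was the largest of the licensing genes. Mcm3, another helicase subunit, had 11.26 and 10.60 in control tumours, against 8.43 and 9.20 in control mucosa. The groups did not overlap for either subunit, although the mucosa arrays differed from each other more than the tumour arrays did. Mcm4 and Mcm6, the remaining subunits, rose by 2.01 and 1.86. The smallest changes of the list were in Mcm2, also a helicase subunit, and in Cdt1, the other loading factor. Mcm2 had 9.85 and 10.24 in control tumours, against 8.27 and 9.16 in control mucosa (1.33 ± 0.39, adjusted p = 0.039, limma). Cdt1 had 11.78 and 11.76 in control tumours, against 10.19 and 10.66 in control mucosa (1.34 ± 0.33, adjusted p = 0.022, limma).

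The helicase activation genes split. Gins1 and Gins2, subunits of the GINS complex, rose, and Cdc45 and the clamp Pcna did not pass the test. Gins1 had 9.45 and 9.28 in control tumours, against 7.32 and 7.63 in control mucosa (1.89 ± 0.27, adjusted p = 0.0036, limma). Gins2 had 9.05 and 9.17 in control tumours, against 6.93 and 7.64 in control mucosa (1.83 ± 0.34, adjusted p = 0.0080, limma). Both stood clear of the mucosa on both arrays. Cdc45 had 7.92 and 7.70 in control tumours, against 7.39 and 7.08 in control mucosa (0.58 ± 0.27, adjusted p = 0.145, limma), and its second probe set ran the other way, by -0.65. Pcna had 13.23 and 12.80 in control tumours, against 12.31 and 12.24 in control mucosa (0.74 ± 0.30, adjusted p = 0.103, limma). For both the arrays did not overlap, but the differences were smaller.

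All 3 nucleotide synthesis genes rose. Rrm1, the large subunit of ribonucleotide reductase, had 11.45 and 10.95 in control tumours, against 8.69 and 9.42 in control mucosa (2.14 ± 0.35, adjusted p = 0.0056, limma). Rrm2 had 11.62 and 11.72 in control tumours, against 8.89 and 9.89 in control mucosa (2.28 ± 0.38, adjusted p = 0.0060, limma). The 2 subunits thus rose by similar amounts in control mice. Tyms, which makes thymidylate, had 6.43 and 6.01 in control tumours, against 4.60 and 5.19 in control mucosa (1.33 ± 0.35, adjusted p = 0.027, limma). Both mucosa arrays lay under the filter value of 5.20, and with them raised to it the difference is at least 1.02. A dimmer Rrm1 probe set went against the main one, with 7.73 and 5.79 in control tumours and 7.58 and 7.57 in control mucosa, and its low value is on the array with the high Gapdh ratio, whose part in it was not tested.

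The cyclins differed from one another. Ccne1, an E-type cyclin that starts S phase with Cdk2, had 9.24 and 9.19 in control tumours, against 5.99 and 7.32 in control mucosa, and its difference of 2.55 ± 0.44 was the largest of the 34 (adjusted p = 0.0064, limma). Ccna2, the A-type cyclin of S phase and G2, had 11.67 and 11.22 in control tumours, against 8.92 and 9.89 in control mucosa (2.04 ± 0.46, adjusted p = 0.015, limma). The mucosa arrays of both genes were about 1 log2 unit or more apart and still below both tumour arrays. Ccne2, the other E-type cyclin, had 8.32 and 8.53 in control tumours, against 8.22 and 8.22 in control mucosa (0.20 ± 0.35, adjusted p = 0.700, limma), the smallest difference of the 34, and -0.01 after quantile normalization.

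Of 16 measured mitotic genes, 15 rose in control tumours, by 1.28 to 2.43. Ttk, the kinase that starts the spindle checkpoint, had 9.15 and 8.88 in control tumours, against 6.36 and 6.81 in control mucosa (2.43 ± 0.35, adjusted p = 0.0036, limma). Mad2l1, a checkpoint protein that holds Cdc20 inactive, had 11.45 and 11.19 in control tumours, against 9.09 and 9.73 in control mucosa (1.91 ± 0.30, adjusted p = 0.0046, limma). These had the smallest p of the mitotic list, and their groups did not overlap. Bub1b, also of the checkpoint, had 9.46 and 8.91 in control tumours, against 7.62 and 7.70 in control mucosa (1.52 ± 0.27, adjusted p = 0.0073, limma). Mki67, the proliferation marker that coats mitotic chromosomes, had 12.22 and 11.87 in control tumours, against 10.07 and 10.62 in control mucosa (1.70 ± 0.36, adjusted p = 0.013, limma). Aurkb, the kinase of the chromosomal passenger complex, had 9.46 and 9.58 in control tumours, against 7.11 and 8.24 in control mucosa (1.84 ± 0.38, adjusted p = 0.012, limma). In each of these genes the lower tumour array was above the higher mucosa array by over 1 log2 unit.

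Cdk1 and Aurka were the mitotic genes with the smallest differences. Cdk1 had 10.88 and 10.22 in control tumours, against 9.01 and 9.53 in control mucosa (1.28 ± 0.34, adjusted p = 0.029, limma). Aurka, the centrosome kinase, had 9.61 and 8.64 in control tumours, against 8.19 and 8.43 in control mucosa (0.82 ± 0.34, adjusted p = 0.107, limma). In both, the second control tumour array, the one with the high Gapdh ratio, was the lower, and Aurka was called without it (1.30, adjusted p = 0.036, limma). The other 9 mitotic genes were called: the cyclin Ccnb2, Cdc20, the kinases Plk1 and Bub1, the topoisomerase Top2a, the passenger subunit Birc5, the kinesins Kif11 and Kif20a and the centromere histone Cenpa, at 1.54 to 2.16.

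Licensing and mitotic genes were raised by about the same amount. The median difference in control mice was 1.88 over the 8 licensing genes and 1.84 over the 16 mitotic genes. The mean signal of the licensing list, relative to control mucosa, was 1.80 and 1.51 in deficient tumours, 0.15 and 0.84 in deficient mucosa, 1.96 and 1.72 in control tumours, and -0.27 and 0.27 in control mucosa. That of the mitotic list was 1.88 and 1.57 in deficient tumours, 0.27 and 0.73 in deficient mucosa, 1.96 and 1.58 in control tumours, and -0.33 and 0.33 in control mucosa. The lists moved together on every array. Licensing minus mitotic lay between -0.12 and 0.14 on the 8 arrays, with an SD between arrays of a group of 0.105. Its group means lay no farther apart than the 2 deficient mucosa arrays did, which is a description with no test.

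**Figure D3:**
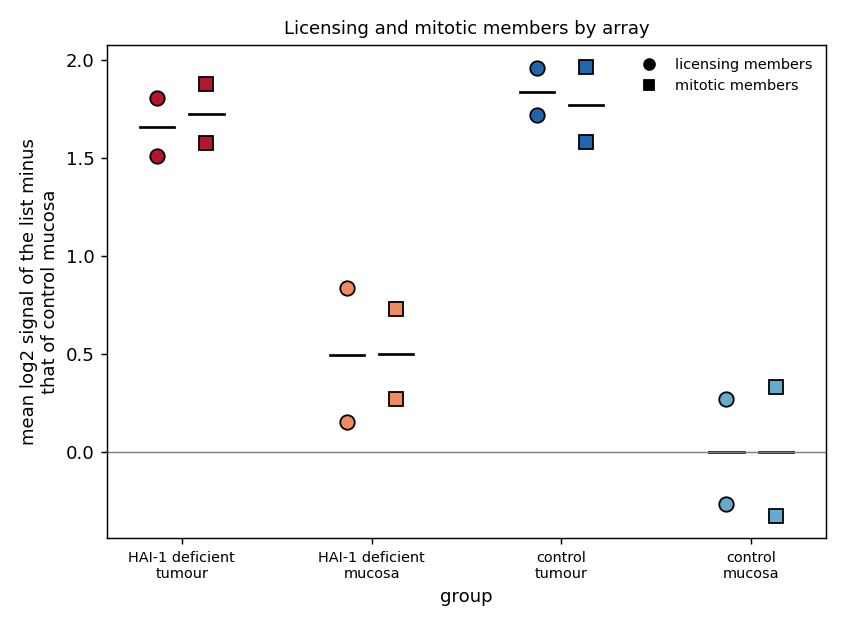
Mean log2 signal of the licensing genes (circles) and the mitotic genes (squares) relative to control mucosa (y axis) for each array, by group (x axis), with bars at group means. Both lists sit at 1.51 to 1.96 in the tumours and at 0.15 to 0.84 in deficient mucosa, with no gap between circles and squares beyond that between arrays.

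In HAI-1 deficient mice the same comparison of tumour with mucosa ran the same way at a smaller size. All 34 differences were above 0, against 61.3% of all genes, with a median of 1.23 against 0.18, and 33 of 34 did not overlap, against 36.6% of all genes. Only 4 were called, Cdc6, Gins1, Rrm1 and Bub1b, against 2.45% of all genes. At an unadjusted p under 0.05 the count was 27, against 17.2% of all genes. The 4 calls did not hold with any 1 of the 8 arrays left out, where fewer of all genes were called too. The median over the 34 then ran from 0.94 to 1.48, against 0.15 to 0.20 over all genes. The licensing median was 1.32 and the mitotic median 1.24. Among the arrays with low spike-in signal the median over the 34 genes was 1.60, and among those with high signal it was 0.76, each from 1 tumour and 1 mucosa array.

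Cdc6 had 8.67 and 8.34 in deficient tumours, against 7.05 and 7.37 in deficient mucosa (1.29 ± 0.25, adjusted p = 0.040, limma). Gins1 had 9.37 and 8.92 in deficient tumours, against 7.64 and 7.88 in deficient mucosa (1.39 ± 0.27, adjusted p = 0.040, limma). Both tumour arrays were about 1 log2 unit or more above both mucosa arrays. Rrm1 had 11.50 and 11.25 in deficient tumours, against 9.48 and 10.03 in deficient mucosa (1.62 ± 0.35, adjusted p = 0.0495, limma). Bub1b had 9.22 and 9.11 in deficient tumours, against 7.68 and 7.99 in deficient mucosa (1.33 ± 0.27, adjusted p = 0.046, limma). The adjusted p of these 4 genes lay close to the threshold, and Mcm7 (1.28 ± 0.28) was just over it at 0.051 by limma. Rrm2 was the exception, with 11.50 and 11.44 in deficient tumours, against 11.01 and 11.71 in deficient mucosa (0.11 ± 0.38, adjusted p = 0.888, limma). On the probe sets used, it was the 1 gene of the 34 whose tumour and mucosa arrays overlapped. The dimmest Rrm2 probe set did not overlap, with 9.84 and 9.67 in deficient tumours, against 9.33 and 8.73 in deficient mucosa. The other overlapped, with 10.97 and 10.83 in deficient tumours, against 10.34 and 10.89 in deficient mucosa.

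Several other genes had smaller differences here. Mki67 had 11.67 and 11.42 in deficient tumours, against 10.54 and 11.41 in deficient mucosa (0.57 ± 0.36). Cdt1 had 11.32 and 11.08 in deficient tumours, against 10.26 and 11.07 in deficient mucosa (0.53 ± 0.33). For both, the second mucosa array nearly reached the lower tumour array. Mcm2 had 9.69 and 9.68 in deficient tumours, against 8.75 and 9.53 in deficient mucosa (0.55 ± 0.39), while its other probe set differed by 2.07 here and by 1.97 in control mice. Ccne2 had 8.87 and 8.31 in deficient tumours, against 7.06 and 7.95 in deficient mucosa (1.08 ± 0.35, adjusted p = 0.120, limma). For Ccne2 alone was the fitted difference over 0.5 larger in deficient than in control mice.

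The other genes given in full ran the same way. Mcm3 had 11.21 and 10.90 in deficient tumours, against 9.21 and 10.11 in deficient mucosa. Mcm5 had 11.42 and 10.60 in deficient tumours, against 9.20 and 9.98 in deficient mucosa. Mcm7 had 12.48 and 12.56 in deficient tumours, against 10.94 and 11.53 in deficient mucosa. In all 3 helicase subunits the tumour arrays were the higher. Gins2 had 9.24 and 9.10 in deficient tumours, against 7.76 and 8.44 in deficient mucosa. Cdc45 had 8.06 and 7.61 in deficient tumours, against 7.48 and 7.41 in deficient mucosa. Pcna had 13.28 and 13.63 in deficient tumours, against 13.06 and 12.51 in deficient mucosa. The gap was widest for Gins2 and narrow for Cdc45 and Pcna. Tyms had 6.48 and 5.73 in deficient tumours, against 5.55 and 5.42 in deficient mucosa. Ccne1 had 8.88 and 8.75 in deficient tumours, against 7.08 and 7.73 in deficient mucosa. Ccna2 had 11.53 and 10.85 in deficient tumours, against 9.57 and 10.47 in deficient mucosa. None of these 3 overlapped, and none was called. Among mitotic genes, Ttk had 8.88 and 8.24 in deficient tumours, against 6.85 and 7.50 in deficient mucosa. Mad2l1 had 11.50 and 11.21 in deficient tumours, against 9.95 and 10.16 in deficient mucosa. Aurkb had 9.76 and 9.36 in deficient tumours, against 7.71 and 7.95 in deficient mucosa. These 3 stood clear of the mucosa by more than the arrays of a group differed. Aurka had 9.69 and 9.74 in deficient tumours, against 8.77 and 8.76 in deficient mucosa. Cdk1 had 11.10 and 11.23 in deficient tumours, against 9.77 and 10.36 in deficient mucosa. Both kinases were higher on both tumour arrays.

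Set against control mucosa, deficient mucosa had somewhat more RNA of most of these genes, but none passed the test. Of the 34 differences 33 were above 0, against 59.4% of all genes, with a median of 0.53 against 0.11. Arrays did not overlap with deficient mucosa higher for 18 genes, against 30.9% of all genes, and with it lower for Ccne2, against 17.3%. By limma 0 of 34 were called, against 0.899% of all genes called higher. At an unadjusted p under 0.05, Rrm2 and Gins2 were higher, against 13% of all genes. The median moved to 0.24 without the first control mucosa array, where that of all genes was 0.15 and 27 of 34 differences were above 0, and to 0.27 without the second deficient mucosa array, where that of all genes was 0.13. It was 0.88, against 0.055 over all genes, without the second control mucosa array. The licensing median was 0.44 and the mitotic median 0.53. Markers of other cells differed in both directions. Fibroblast markers were at a mean of 8.83 and 8.67 in deficient mucosa against 7.65 and 8.03 in control mucosa. At an unadjusted p under 0.05 by limma, 5 of 6 were higher, against 13% of all genes. The other was lower, at -1.37, against 594 of 13119 genes lower. Crypt stem cell markers were at 8.64 and 9.36 in deficient mucosa against 8.51 and 8.92 in control mucosa, which overlap. Endothelial markers were at 7.31 and 7.71 in deficient mucosa against 6.33 and 6.19 in control mucosa, with Tek, an endothelial receptor, called (2.25 ± 0.30, adjusted p = 0.035, limma). T cell markers were lower, at 8.04 and 7.24 in deficient mucosa against 9.10 and 8.76 in control mucosa. Of these 0 of 4 were called, and 3 were lower at an unadjusted p under 0.05, against 594 of 13119 genes. Their part in the result was not tested.

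Rrm2, the subunit that limits the supply of deoxynucleotides, had the largest of these differences. Its signal was 11.01 and 11.71 in deficient mucosa, against 8.89 and 9.89 in control mucosa (1.97 ± 0.38, unadjusted p = 0.0011, adjusted p = 0.060, limma). The lower deficient array was over 1 log2 unit above the higher control array, and deficient mucosa overlapped the range of the tumours. The adjusted p was 0.0255 to 0.252 over the alternatives tried and under 0.05 in 3 of them: the stricter filter, an added constant and a mean-variance trend. Its other probe sets gave 2.25 and 1.36. The first of them had 10.34 and 10.89 in deficient mucosa, against 7.78 and 8.95 in control mucosa. The second had 9.33 and 8.73 in deficient mucosa, against 7.28 and 8.06 in control mucosa. On all 3 probe sets both deficient arrays were above both control arrays. Rrm1, its partner, had 9.48 and 10.03 in deficient mucosa, against 8.69 and 9.42 in control mucosa (0.70 ± 0.35, adjusted p = 0.363, limma).

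Gins2 had 7.76 and 8.44 in deficient mucosa, against 6.93 and 7.64 in control mucosa (0.82 ± 0.34, adjusted p = 0.269, limma). Cdk1 had 9.77 and 10.36 in deficient mucosa, against 9.01 and 9.53 in control mucosa (0.80 ± 0.34). Mad2l1 had 9.95 and 10.16 in deficient mucosa, against 9.09 and 9.73 in control mucosa (0.65 ± 0.30). In these 3 genes the groups did not overlap, but the gap was under 0.3. Mcm3 had 9.21 and 10.11 in deficient mucosa, against 8.43 and 9.20 in control mucosa (0.85 ± 0.42), Cdc6 differed by 0.55 ± 0.25, and Pcna had 13.06 and 12.51 in deficient mucosa, against 12.31 and 12.24 in control mucosa (0.51 ± 0.30). Ccna2 had 9.57 and 10.47 in deficient mucosa, against 8.92 and 9.89 in control mucosa, and Ccne1 had 7.08 and 7.73 in deficient mucosa, against 5.99 and 7.32 in control mucosa. The arrays of both cyclins overlapped on these probe sets. On its other probe set Ccne1 had 7.32 and 7.56 in deficient mucosa, against 6.80 and 6.44 in control mucosa, with no overlap. The other Ccna2 probe set overlapped, with 9.36 and 9.19 in deficient mucosa, against 8.77 and 9.29 in control mucosa. Ccne2 went the other way, with 7.06 and 7.95 in deficient mucosa, against 8.22 and 8.22 in control mucosa (-0.71 ± 0.35, adjusted p = 0.359, limma). On the probe sets used, Aurkb (0.15 ± 0.38), Bub1b (0.17 ± 0.27), Cdc45 (0.21 ± 0.27) and Cdt1 (0.23 ± 0.33) differed by less than their standard error or about as much. A dimmer Aurkb probe set had 7.49 and 8.06 in deficient mucosa, against 6.21 and 6.94 in control mucosa. A dimmer Bub1b probe set that passed the filter had 7.39 and 7.40 in deficient mucosa, against 6.55 and 6.75 in control mucosa. Neither overlapped, while the dimmer Cdc45 probe set did. Tyms had 5.55 and 5.42 in deficient mucosa, against 4.60 and 5.19 in control mucosa, at least 0.28 with the control arrays raised to the filter value.

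**Figure D4:**
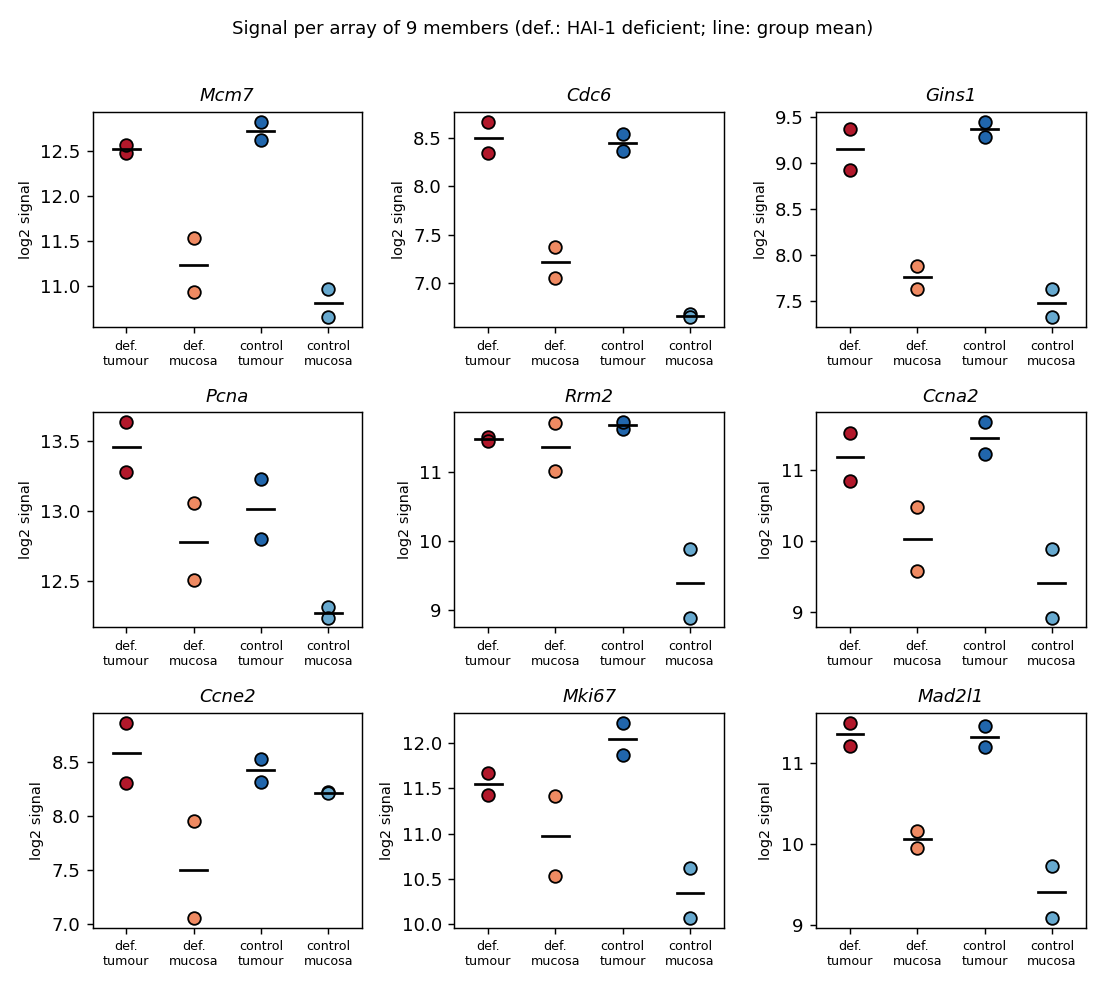
Log2 signal (y axis) of 9 genes on each array, by group (x axis; def. is HAI-1 deficient), with lines at group means. Rrm2 is the panel in which deficient mucosa (11.01 and 11.71) overlaps deficient tumours (11.50 and 11.44). Ccne2 is the one in which deficient mucosa (7.06 and 7.95) lies under control mucosa.

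Between deficient and control tumours no gene passed the test. By limma 0 of 34 were called, against 0% of all genes, and 0 had an unadjusted p under 0.05, against 6.11% of all genes. Of the 34 differences 15 were above 0, against 49.4% of all genes, with a median of -0.12 against -0.01. Arrays did not overlap with deficient tumours higher for 3 genes, against 18.6% of all genes, and lower for 10, against 19.4%. The count above 0 ran from 7 to 21 when 1 array was left out, so the median has no settled sign. The licensing median was -0.16 and the mitotic median -0.09. Over all their probe sets past the filter these medians were -0.07 and -0.02.

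The 3 genes higher in both deficient tumours were Cdk1, Aurka and Pcna. Cdk1 had 11.10 and 11.23 in deficient tumours, against 10.88 and 10.22 in control tumours (0.62 ± 0.34, adjusted p = 0.779, limma). Aurka had 9.69 and 9.74 in deficient tumours, against 9.61 and 8.64 in control tumours (0.59 ± 0.34, adjusted p = 0.779, limma). Pcna had 13.28 and 13.63 in deficient tumours, against 13.23 and 12.80 in control tumours (0.44 ± 0.30, adjusted p = 0.783, limma). In all 3 the low control array is the one with the high Gapdh ratio, and the part of RNA quality in the difference was not tested. Cdt1 had 11.32 and 11.08 in deficient tumours, against 11.78 and 11.76 in control tumours (-0.57 ± 0.33, adjusted p = 0.779, limma). Mki67 had 11.67 and 11.42 in deficient tumours, against 12.22 and 11.87 in control tumours (-0.50 ± 0.36, adjusted p = 0.784, limma). Both were lower on both deficient arrays. Mcm5 had 11.42 and 10.60 in deficient tumours, against 11.52 and 11.42 in control tumours (-0.46 ± 0.43), and Rrm2, at -0.20 ± 0.38, was near level. The next-brightest Mcm5 probe set overlapped, with 10.31 and 10.01 in deficient tumours, against 10.43 and 9.81 in control tumours. Bub1b (-0.02 ± 0.27), Mad2l1 (0.03 ± 0.30), Cdc45 (0.03 ± 0.27), Gins2 (0.06 ± 0.34) and Cdc6 (0.05 ± 0.25) differed by a small part of their standard error.

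**Figure D5:**
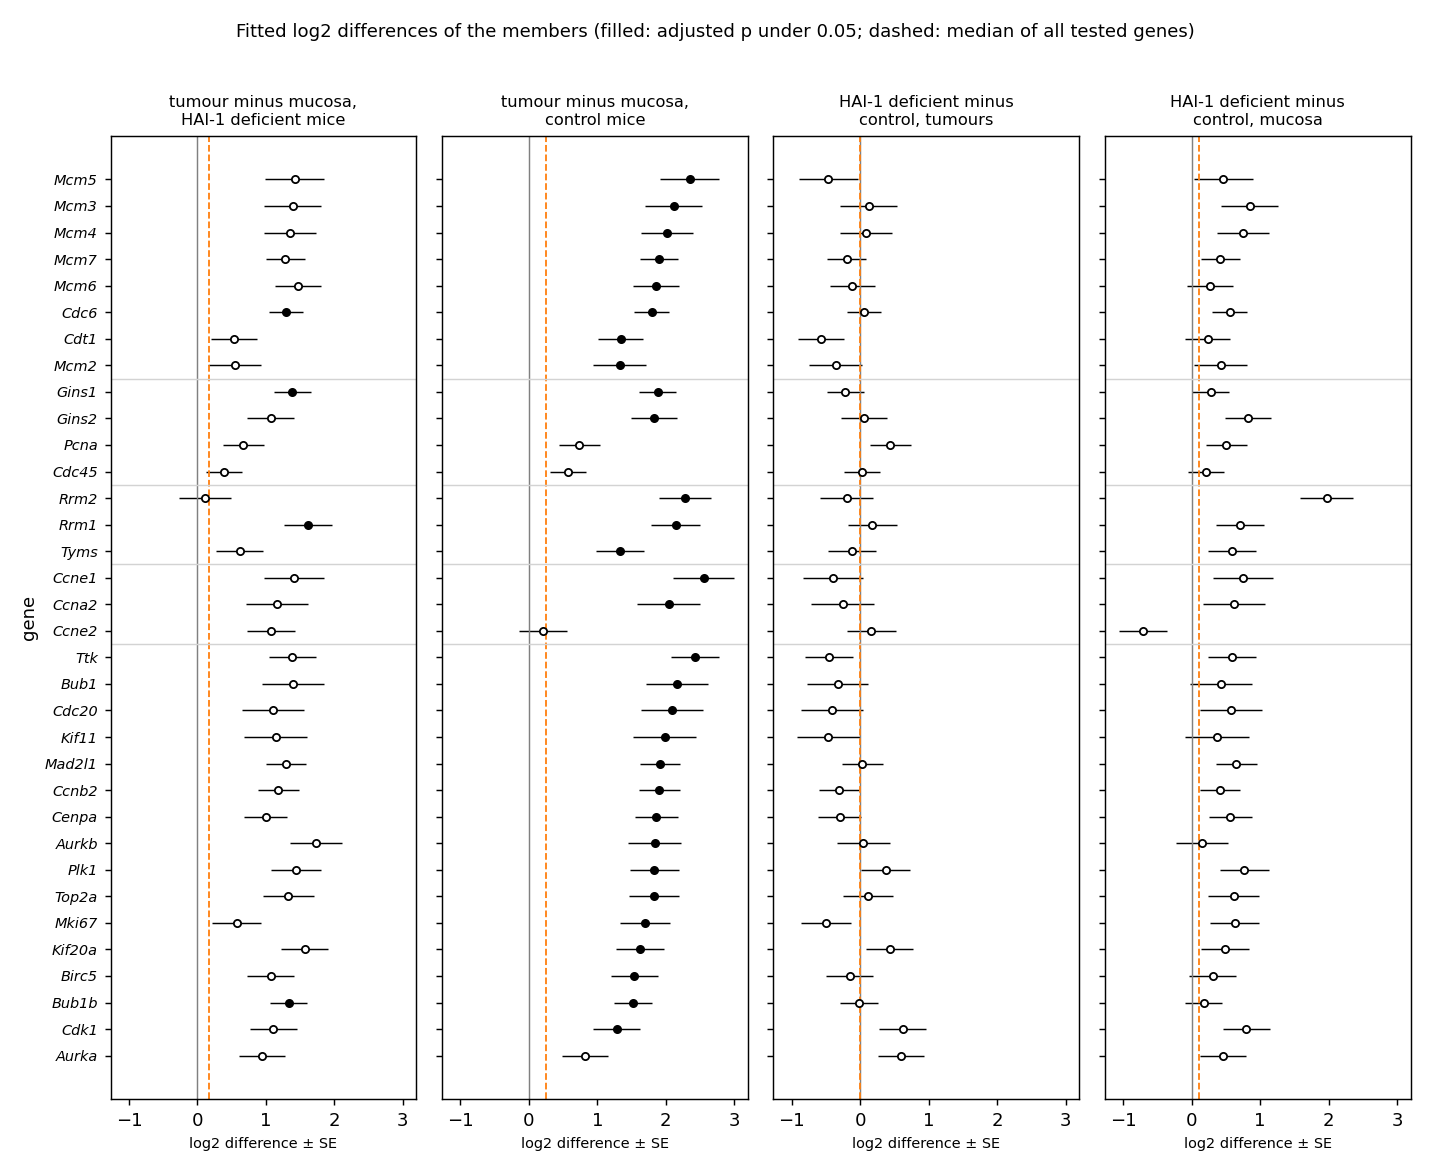
Fitted log2 differences ± SE (x axis) of the 34 genes (y axis, by role) in 4 comparisons, filled where called, with a dashed line at the median of all genes. In control mice 30 points are filled, in deficient mice 4, and in both comparisons of HAI-1 deficient with control tissue none, with Rrm2 in mucosa at 1.97 farthest from 0.

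The interaction takes the deficient minus control difference of mucosa from that of tumours, and so tests whether tumour and mucosa differ less in deficient mice. It was below 0 for 32 of 34 genes, while 41.1% of all genes were above 0, and its median was -0.64 against -0.12. By limma 0 genes were called, against 0% of all genes, and at an unadjusted p under 0.05 only Rrm2 was (-2.17 ± 0.54, adjusted p = 0.306, limma), against 7.16% of all genes. The median lay between -0.34 and -0.92 with 1 array left out, nearest 0 without the first control mucosa array or the second deficient mucosa array. No difference between the genotypes in the size of the tumour comparison was thus called for any of these genes. In order of limma p, Mki67 (-1.12 ± 0.51) and Ttk (-1.04 ± 0.49) came after Rrm2. By size Ccne1, at -1.14, lay farther below 0 than these 2, and Ccne2 was the gene farthest above 0 (0.88 ± 0.50). Averaged over genotypes, all 34 differences between tumours and mucosa were above 0, against 8077 of 13119 genes. Tumours were called higher for 32 of 34, against 25.7% of all genes, all but Cdc45 (adjusted p = 0.082, limma) and Ccne2 (adjusted p = 0.081, limma). Averaged over tissues, HAI-1 loss gave 0 calls, against 0% of all genes, and 2 genes with an unadjusted p under 0.05, Rrm2 (0.89 ± 0.27) and Cdk1 (0.71 ± 0.24), against 11.2% of all genes.

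Probe sets of a gene did not always give the same size of change. Of the 75 probe sets 63 passed the filter, and in control mice 45 of them rose and none fell, against 22.6% of all probe sets called, when the model was fitted to probe sets. In deficient mice 1 rose, against 0.685%, and 0 were called in either comparison of deficient with control tissue, against 0.0824% in mucosa and 0% in tumours. Cdc20 differed between control tumours and control mucosa by 1.46 and 2.09 on 2 of its 3 probe sets, while on the other all mucosa arrays, deficient and control, were under the filter value and no size is given, Bub1b by 1.52 and 2.70, and Kif11 by 1.98, 0.66 and -0.17. Cenpa gave 1.86 and -0.06, Mcm5 1.08 to 2.35, Rrm2 1.05 to 2.64 and Mcm3 0.05 to 2.16 over their probe sets. In deficient mice Mcm2 gave 0.55 and 2.07. The Rrm2 interaction was -2.17, -2.36 and -0.32, and the dimmest of its probe sets was 1.04 higher in deficient than in control tumours, where the others gave -0.20 and -0.10. The 4 Mcm7 probe sets lay between 1.74 and 1.94. Mcm3 had a probe set with 6.34 and 2.46 in control tumours and 5.16 and 2.56 in control mucosa, under the filter value on 3 of those 4 arrays. Probe sets whose names end in _x_at or _s_at, among them those used for Mcm2, Mcm3, Mcm5, Mcm7, Gins2, Rrm2, Ccne1, Cdc20 and Aurkb, can pick up related transcripts, so their size is less certain.

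Genes of the same processes that are outside the 35 followed them. Of 42 tested other replication genes, 29 rose in control tumours, against 21.2% of all genes, and none fell, with a median of 1.36. They were led by Tipin (2.44 ± 0.28), which steadies the replication fork, Uhrf1 (2.42 ± 0.31), which copies DNA methylation, and Prim1 (2.10 ± 0.29), the primase. Of 50 other mitosis genes 45 rose, against the same 21.2%, and none fell, with a median of 1.87, led by the kinetochore protein Spc25 (2.35 ± 0.27), the kinesin Kif2c (2.93 ± 0.36) and the spindle pole protein Aspm (2.06 ± 0.27). In deficient mice, where 2.45% of all genes were called higher, 2 of the 42 replication genes rose, Tipin (1.66 ± 0.28) and the histone chaperone subunit Chaf1b (1.36 ± 0.27), and 4 of the 50 mitosis genes, led by the spindle assembly factor Tpx2 (1.34 ± 0.25), Aspm (1.40 ± 0.27) and Spc25 (1.41 ± 0.27).

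Genes that set the entry into the cycle were mixed. Of 27 tested G1 regulators and inhibitors, 9 rose in control tumours, against 21.2% of all genes, and none fell. Cdk6 (1.91 ± 0.24) and Cdk4 (1.64 ± 0.27), the kinases of D-type cyclins, and the checkpoint kinase Chek1 (1.66 ± 0.31) had the smallest p. The kinase inhibitors Cdkn1b (-1.03 ± 0.37), Cdkn1a (-0.83 ± 0.32) and Cdkn2b (-0.74 ± 0.31) were not called, with adjusted p of 0.074 to 0.108 by limma. In deficient mice Cdk4 was called (1.28 ± 0.27). In neither comparison of deficient with control tissue was any gene of these 3 lists called by limma. In mucosa 13 of 42 replication genes, 9 of 50 mitosis genes and 1 of 27 G1 genes were higher at an unadjusted p under 0.05, against 13% of all genes, so the mitosis genes were near that share and the G1 genes under it. The smallest p in mucosa belonged to Uhrf1 (0.98 ± 0.31) and Chaf1b (0.81 ± 0.27) among replication genes, to Trip13 (1.02 ± 0.29) and Tacc3 (0.94 ± 0.27) among mitosis genes, and to Cdk6 (0.81 ± 0.24) among G1 genes. Between tumours the smallest p among G1 genes belonged to E2f2, an activating E2F factor, with 9.57 and 9.09 in deficient tumours, against 8.46 and 6.46 in control tumours (1.87 ± 0.63, adjusted p = 0.779, limma). The low control value is on the array with the high Gapdh ratio, and the first control array lay much nearer the deficient ones.

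Markers of other cell types moved with tissue. The 8 epithelial markers were all measured and their mean lay at 13.4 to 13.6 on every array. Single markers still went both ways, and 1 of 8 rose in control tumours, against 21.2% of all genes. These markers bear on the presence of epithelium and do not tell tumour from mucosa. Crypt stem cell markers, relative to control mucosa, were at 1.96 and 1.81 in deficient tumours, -0.08 and 0.64 in deficient mucosa, and 2.03 and 1.72 in control tumours, and 4 of 7 rose in control tumours, against 21.2% of all genes. Fibroblast markers were at 3.15 and 3.04 in deficient tumours, 1.0 and 0.83 in deficient mucosa, and 3.73 and 3.54 in control tumours. Of these, 6 of 6 rose in control tumours, against 21.2% of all genes. Smooth muscle markers were at 4.18 and 2.95 in deficient tumours, 1.85 and 0.95 in deficient mucosa, and 2.99 and 4.06 in control tumours. Here 5 of 5 rose in control tumours, against the same 21.2%. In deficient against control mucosa Tek was the only marker of fibroblasts, crypt stem cells, smooth muscle, endothelium and T cells that was called. At an unadjusted p under 0.05, 5 of 6 fibroblast and 3 of 5 smooth muscle markers were higher, against 13% of all genes. The other fibroblast marker was lower, at -1.37, against 594 of 13119 genes lower. In control tumours 2 of 4 endothelial markers rose, against 21.2% of all genes. Stromal markers thus rose with the replication genes, while 2 of 8 absorptive enterocyte markers and 2 of 4 T cell markers fell in control tumours, against 7.64% of all genes. The part of cell composition in the differences above was not tested.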

How the data were processed

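Total RNA was labelled with biotin from 6 ug in a single cycle and hybridised to Affymetrix mouse arrays, per the labels. The submitters' processing notes name MAS5 and RMA, and their roles are not stated. Values are log2 signals as the authors deposited them for 45101 probe sets. Turned back to linear signal and trimmed by 2% at either end, arrays averaged 500.003 to 500.004, as MAS5 scaling gives, so no further scaling was applied. Detection calls were not used, and the number of arrays limits the precision.

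The platform annotation names 1 gene on 34958 probe sets, more than 1 on 932, and leaves 9211 unnamed. Probe sets with a mean under the 40th percentile (5.20 log2, 36.8 linear) were removed and the brightest single-gene probe set was kept for each gene, which left 13119 genes. limma 3.58.1 in R 4.3.3 fitted 4 group means to all 8 arrays (4 residual and 3.52 prior degrees of freedom), with 7 two-sided contrasts and Benjamini-Hochberg adjustment within each. The fit was tested on simulated data. Promoter words were searched with python 3.11.15 in RefSeq windows (27025 genes, 32851 windows, GRCm38.p6). Alternatives changed the normalization, the filter, the choice of probe set, an added constant, the variance model, the arrays fitted and blocks.

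The genes, lists, tests and alternatives were chosen with earlier results of these data known. Genes given in full are, for each role, the 2 with the smallest and the 1 with the largest p in control tumours against mucosa and in both comparisons of deficient with control tissue, with Pcna and Mki67 added. Lists outside the 35 genes give up to 3 genes per direction by smallest p. Probe set positions are not used here.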

Additional observations from a re-analysis of the deposited data

Results flagged for a closer look

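A probe set that the annotation assigns to both Tyms and Tyms-ps was outside the comparisons above, which used single-gene probe sets. Its log2 signal was 10.44 and 10.25 in HAI-1 deficient tumours, 9.04 and 9.22 in deficient mucosa, 10.44 and 10.11 in control tumours, and 8.38 and 9.07 in control mucosa. Deficient tumours were 1.62 and control tumours 1.55 above control mucosa, with no overlap of arrays, and deficient mucosa overlapped control mucosa. Signals of the 2 genes cannot be told apart on it, and it had no test of its own. No gene of the 34 had an interaction called by limma.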

How the results depend on the processing

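Counts of called genes in tumour against mucosa depended on single arrays and settings. In control mice 30 of 34 were called, and 24 to 30 under the alternatives that kept all arrays. Fewer were called, of the 34 and of all genes, without either control tumour array or the first control mucosa array. With 1 array left out the median over the 34 ran from 1.52 to 2.17, against 0.21 to 0.29 over all genes. In HAI-1 deficient mice 4 were called (551 of 13119 genes in either direction). The count was 1 with quantile normalization (416 of 13117 genes) or a fit on probe sets (158 of 23065). It was 13 with a 60th percentile filter (959 of 10170 genes) or with 32 added to the linear signal (1041 of 13142). With a mean-variance trend it was 14 (972 of 13119). It was 0 with no filter (0 of 18194) or only the groups compared (0 of 13119). It was also 0 with the mean of probe sets (205 of 12114), a replicate block (341 of 13119) or the spike-in class as a term (406 of 13119). The 4 calls did not hold with any 1 array left out, where fewer of all genes were called too. In deficient against control mucosa 0 were called, and 1, Rrm2, with the 60th percentile filter, with 32 added, or with the trend. In deficient against control tumours and in the interaction 0 were called under every alternative.

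Licensing minus mitotic medians changed sign with the processing, and lay between -0.18 and 0.19 with all arrays kept. With 1 array left out they reached 0.25 in control mice and -0.43 for the interaction. In control mice the difference was 0.04, and -0.10 to 0.25 with 1 array left out. Quantile normalization gave 0.19 in deficient mice and 0.19 averaged over genotypes. The mean of probe sets gave 0.17 averaged over genotypes, 0.067 for deficient minus control mucosa, 0.054 in tumours, 0.14 averaged over tissues and 0.11 for the interaction. With 1 array left out the ranges were -0.15 to 0.024 in mucosa, -0.070 to 0.068 in tumours, -0.11 to 0.071 averaged over tissues and -0.43 to -0.0091 for the interaction. Without the filter 27 probe sets rose in control tumours, against 45, and 0 in deficient tumours, against 1. On the given strand alone CCAAT stood in 14 windows, against 22, and CHR with CCAAT in 6, against 13. Of the named genes none turned direction once called, and the cause of the changes was not tested.

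Arrays with the same number deviated together by r of -0.14 to 0.22 across genes, and the labels tie no numbers to a shared animal or batch. The second arrays of 3 groups did share brighter spike-ins, and both second mucosa arrays a high 18S signal. The replicate block kept 30 calls in control mice and moved the 4 in deficient mice to 0. With 2 arrays a group, no detection calls and no stated link between arrays and mice, a gene that was not called is not shown to be alike in both groups.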
